A study of Gossypium hirsutum with 6 samples.

Results

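The genes described here are the transcripts of upland cotton (Gossypium hirsutum) that were far more abundant in virescent leaves than in green leaves. A gene was a member if its identifier carried a chromosome label, if it reached 1 FPKM (fragments of a transcript, scaled to its length and to the size of the library) in at least 3 of the 6 libraries, if its mean FPKM was below 1000, if its mean log2(FPKM + 1) was at least 2 higher in the virescent libraries, and if its lowest virescent value exceeded its highest wild-type value. The identifiers Gh_D10G0184 to Gh_D10G0383 were left aside. These conditions were met by 155 of the 38561 genes that could have met them (0.402%), in a table of 65126 identifiers. The genotype difference itself chose these genes, so its size is given below as a description and no test is read from it.

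RNA from first true leaves was sequenced in 3 libraries of the green genotype, labelled msmsv1v1 (WT), and 3 libraries of the pale genotype, labelled MSmsv1v1 (Virescent mutant) and named Yt30 in the series. Both genotypes carry the v1v1 symbols and their labels differ in msms against MSms. Nothing in the labels says whether the libraries of a genotype came from separate plants, so any spread between libraries may be technical. The FPKM of a library added up to 1019041 to 1048966 in the wild type and to 1057345 to 1068010 in virescent leaves. Every virescent total was thus above every wild-type total. The number of fragments behind them is unknown. On the first principal component of all tested genes wild type 2 was the wild-type library, and virescent 2 the virescent library, nearest to the other genotype. By the rule applied without both of them, 199 genes would be members, of which 148 are among the 155, and the median log2 difference of the 155 would be 2.49.

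In virescent plants the young leaf is pale and greens as it ages, because its plastids develop late into chloroplasts. Most proteins of the chloroplast are encoded in the nucleus, and the state of the plastid in turn affects the transcription of nuclear genes. Upland cotton is an allotetraploid, so most genes exist as an A and a D copy on chromosomes of the same number, apart from exchanged chromosome arms. The identifiers of the table are not paired with gene names. The RefSeq table used here matched 0 of the 65126 identifiers, and so 0 of the 155 members. No function is therefore given to any member. For the same reason leaf and cell type markers could not be looked up. In whole leaves, more cells that hold a transcript and more transcript per cell cannot be told apart.

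As a group the members made up a small part of the leaf transcriptome. They summed to 1191, 1540 and 1149 FPKM in wild type 1, 2 and 3, and to 10697, 10808 and 7176 FPKM in virescent 1, 2 and 3. Virescent 3 was thus the lowest of its genotype, and every virescent library lay far above every wild-type library, as the choice of the genes requires. The group means were 1293 ± 214 FPKM in the wild type and 9560.2 ± 2066 FPKM in virescent leaves (SD, n = 3 each). Expressed as a share of all FPKM, the members held 0.125% ± 0.020 in the wild type and 0.899% ± 0.195 in virescent leaves (SD, n = 3 each).

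The median member had a mean of 4.32 FPKM in the wild type (quartiles 1.70 and 9.90) and 38.0 FPKM in virescent leaves (quartiles 16.7 and 68.4). The median log2 difference of the members was 2.37, with quartiles of 2.14 and 2.65, against 0.05 for all tested genes. A difference of 3 or more was reached by 26 members, one of 4 or more by 7 and one of 5 or more by 4. The lowest virescent value was at least 2 times the highest wild-type value in 141 of the 155 members. Higher values without overlap were found in 21.1% of the genes that could have met the rule, and 7975 of those genes fell short of the difference of 2.

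Most members were also transcribed in green leaves. Of the 155, 116 reached 1 FPKM in all 3 wild-type libraries and 20 more in some of them, while 19 stayed below 1 FPKM in every wild-type library. Those 19 passed the filter on low values through the virescent libraries alone and therefore had to differ. A value of 0 in all wild-type libraries occurred in 0 members, and a 0 in at least 1 of them in 4 members.

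**Figure D1:**
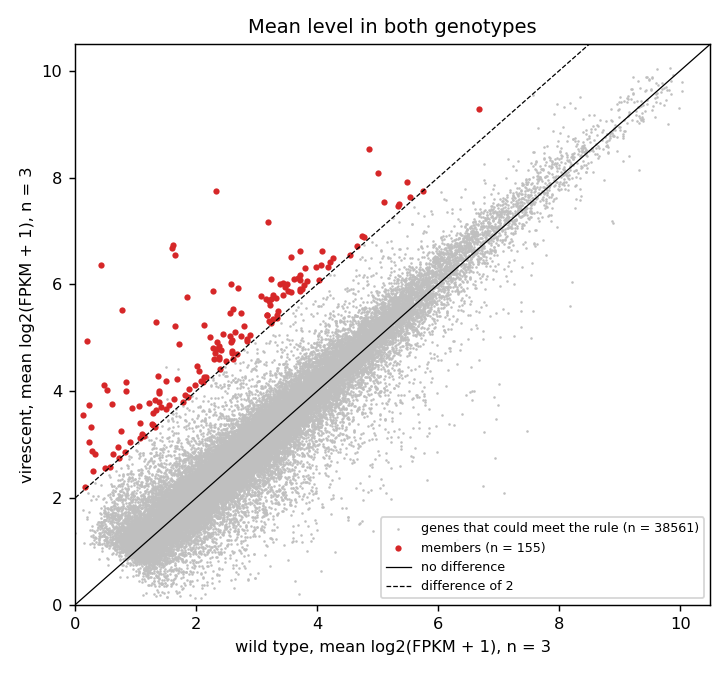
Mean log2(FPKM + 1) in the wild type (horizontal axis) against virescent leaves (vertical axis), 3 libraries each; red points are the 155 members and grey points the other genes among the 38561 that could have met the rule. The members lie on or above the dashed line, which marks a difference of 2, over wild-type means from 0.10 to 103 FPKM.

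By limma on log2(FPKM + 1), 145 of the 155 members were called higher in virescent leaves (adjusted p under 0.05), where 6.30% of all 43104 tested genes were called higher. Because the same difference chose the members, nothing is read from that count. Without wild type 1 the fit called 40 members higher, and 248 of all 43104 tested genes. Without wild type 3 it called 87 members, and 572 of all 43104. The 10 members that missed the threshold, at adjusted p between 0.0513 and 0.183 in limma, had 1 genotype with widely spread libraries. In Gh_A02G0378, for instance, the virescent values were 211.39, 708.27 and 18.76 FPKM, and in Gh_D06G1695 the wild-type values were 14.84, 0.03 and 12.56 FPKM.

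The libraries of 1 genotype differed widely among the members. Which library of a genotype is highest is not fixed by the rule. The size of the spread is not free of it, since 1 very high virescent library raises the mean that chose the members. The condition on overlap also limits how far the wild-type libraries can spread. The values below are therefore a description. The median SD of log2(FPKM + 1) between virescent libraries was 0.77 over the members, against 0.18 over all genes that could have met the rule. Between wild-type libraries the median SD was 0.26 in the members and 0.17 in those genes. The highest virescent value was at least 2 times the lowest in 108 members, at least 4 times in 42 and at least 8 times in 16.

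Sorted by the rank of the 3 virescent libraries, the members fell mainly into a pair of opposite profiles. In 68 members (43.9%) virescent 1 was highest, virescent 2 intermediate and virescent 3 lowest. In 39 members (25.2%) the ranking was the reverse, with virescent 3 highest and virescent 1 lowest. Among the 7975 genes that were higher without overlap but by less than 2, these rankings held 23.1% and 16.1%. Among the 56 members with a difference of at least 2.5 their places changed, with 28.6% in the first and 33.9% in the reverse ranking. The other rankings held 12, 10, 18 and 8 members. Virescent 2 was the highest library in 28 members (18.1%), against 31.9% of the 7975 smaller rises. Virescent 1 was above virescent 3 in 90 members and below it in 65, whatever the place of virescent 2. Rankings with virescent 1 above virescent 3 held 23.1%, 12.6% and 18.6% of the 7975 smaller rises, so this was the more common position there too. These groups were formed after the values had been seen, and library numbers carry no order of their own.

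**Figure D2:**
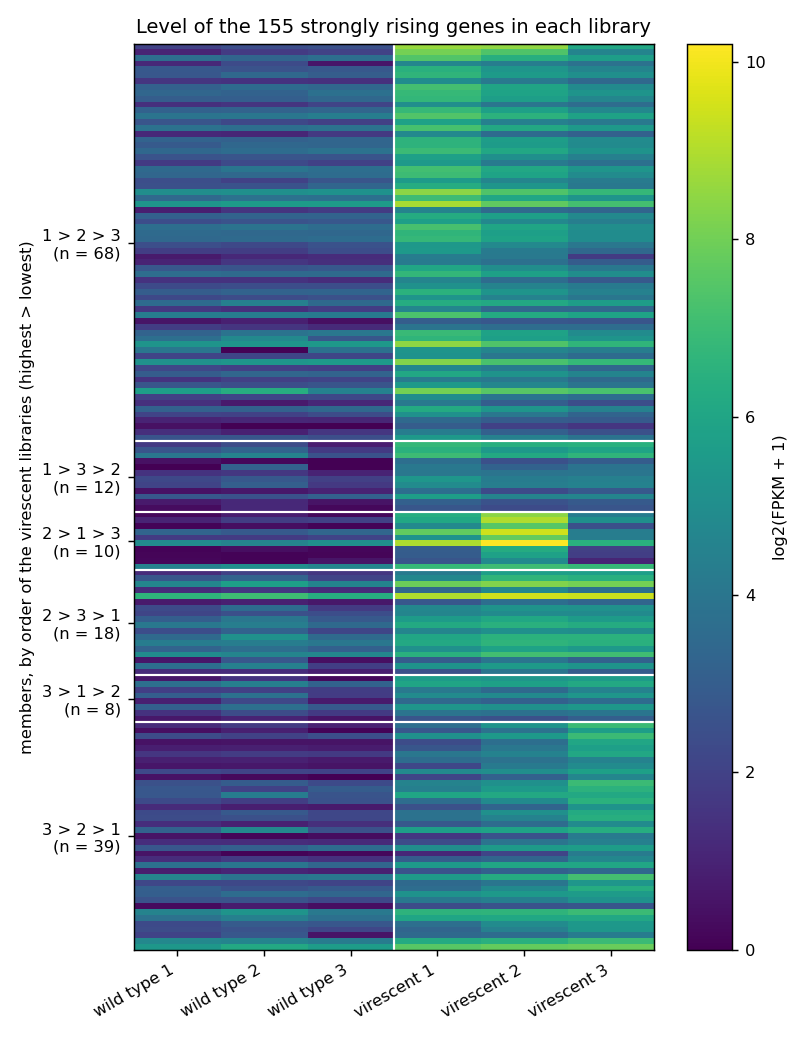
Each row is 1 of the 155 members and each column 1 library, coloured by log2(FPKM + 1); rows are grouped by the ranking of the virescent libraries from highest to lowest. The 68 members of the uppermost block are brightest in virescent 1, the 39 of the lowest block in virescent 3, and the wild-type columns are darker throughout.

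The 68 members highest in virescent 1 and lowest in virescent 3 shared a ranking, while the steps between the libraries varied among them. Their summed level was 567, 651 and 608 FPKM in wild type 1, 2 and 3, which lie close together, and 6613, 3580 and 2020 FPKM in virescent 1, 2 and 3. Virescent 1 exceeded virescent 2 by a median of 2.02 times, with quartiles of 1.69 and 2.16, and virescent 3 by a median of 3.25 times, with quartiles of 2.72 and 3.84 and extremes of 1.23 and 11.5. In the 1839 smaller rises with the same ranking, virescent 1 exceeded virescent 3 by a median of 1.27 times. Those genes rose by a median log2 difference of only 0.48, which leaves less room for wide steps, so the contrast is partly set by the rule. The median range of the wild-type libraries was 0.38 on the log2 scale in these 68 members, while virescent 1 and virescent 3 differed by a median of 1.62.

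Gh_A08G2544, on A08, was among the most abundant of them, at 39.39, 46.17 and 45.64 FPKM in wild type 1, 2 and 3 and at 460.09, 207.55 and 142.82 FPKM in virescent 1, 2 and 3. Its wild-type libraries differed little, and virescent 1 stood at more than 2 times virescent 2. The next identifier, Gh_A08G2543, followed it at 31.37, 33.05 and 35.60 FPKM and at 340.24, 165.82 and 110.84 FPKM. On D08 the consecutive identifiers Gh_D08G0034 and Gh_D08G0035 had virescent values of 314.66, 154.36 and 111.20 FPKM and of 352.07, 167.51 and 101.05 FPKM. Both had wild-type values between 34.73 and 43.27 FPKM, and virescent 1 was highest and virescent 3 lowest in all 4 genes.

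Such likeness was not limited to neighbours. The smallest distance between any 2 members over the 6 libraries, 0.21 on the log2 scale, joined Gh_A05G0098 on A05 and Gh_A08G2548 on A08. Gh_A05G0098 had 9.94, 12.95 and 12.73 FPKM in the wild type and 126.21, 64.97 and 38.21 FPKM in virescent 1, 2 and 3. Gh_A08G2548 had 9.51, 11.34 and 13.22 FPKM and 122.30, 68.33 and 37.25 FPKM. The next closest pair, at 0.22, joined Gh_A08G2115 and Gh_A13G1866. No pair of members had identical values in all 6 libraries.

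A pair on A10 and D10 kept the ranking but not the steps. Gh_D10G1540 had 3.05, 4.27 and 4.85 FPKM in the wild type and 396.44, 366.81 and 67.00 FPKM in virescent 1, 2 and 3. Gh_A10G1006 had 1.04, 2.43 and 3.02 FPKM and 266.85, 166.24 and 23.30 FPKM. Each was the other's closest member, at a distance of 2.34, and their log2 differences of 5.43 and 5.08 were among the 4 largest. In both, virescent 3 stood well below the other virescent libraries and still above every wild-type library.

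The 39 members with the reverse ranking were more varied. They summed to 239, 323 and 219 FPKM in wild type 1, 2 and 3 and to 1000.3, 1399 and 2501 FPKM in virescent 1, 2 and 3. Virescent 3 exceeded virescent 1 by a median of 3.85 times, with quartiles of 1.74 and 7.04. The widest step was that of Gh_A04G0387, with 0.42, 0.44 and 0.46 FPKM in the wild type and 4.15, 11.72 and 63.95 FPKM in virescent leaves. Its virescent 3 value was 15.4 times that of virescent 1, while its wild-type libraries were nearly equal.

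Consecutive identifiers on D09 shared this profile. Gh_D09G0135 had 1.40, 2.44 and 0.94 FPKM in wild type 1, 2 and 3 and 12.13, 36.40 and 121.87 FPKM in virescent 1, 2 and 3. Gh_D09G0136 had 0.82, 0.86 and 0.71 FPKM and 5.64, 15.37 and 53.19 FPKM. The steps between the virescent libraries were alike in both, and Gh_D09G0138 had the same ranking at a lower level, with 1.21, 3.31 and 17.94 FPKM. On A09, Gh_A09G0142 had 0.34, 0.88 and 0.08 FPKM in the wild type and 5.87, 13.28 and 51.04 FPKM in virescent leaves, the same ranking as on D09. Its neighbour Gh_A09G0143 had virescent values of 0.85, 3.93 and 15.47 FPKM and a log2 difference of 2.36, and was no member because only 2 libraries reached 1 FPKM.

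The members with the greatest spread between virescent libraries peaked in virescent 2 and were lowest in virescent 3. The ranking and a wide spread did not always go together. Gh_D02G1414 had this ranking at 113.62, 129.15 and 112.20 FPKM in virescent 1, 2 and 3, a small spread, and Gh_A04G0387 spread widely in another ranking. Of the 10 members with this peak in virescent 2 and low in virescent 3, 3 were consecutive on D02 and 3 lay within a few numbers of each other on A02. Gh_D02G0432, the member with the largest difference, had 0.18, 0.77 and 0.18 FPKM in the wild type and 80.94, 340.23 and 18.71 FPKM in virescent 1, 2 and 3. Gh_D02G0433 was the most abundant of the 10, with 29.55, 22.71 and 33.07 FPKM and 491.45, 1175.86 and 87.81 FPKM. Gh_D02G0434 had 0.08, 0.31 and 0.07 FPKM and 27.14, 182.32 and 4.63 FPKM. In each of the 3, virescent 2 stood highest and the genotypes did not overlap.

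On A02, Gh_A02G0378 had 8.81, 6.43 and 9.26 FPKM in the wild type and 211.39, 708.27 and 18.76 FPKM in virescent leaves, where virescent 3 was only 2.03 times the highest wild-type value. Gh_A02G0379 had 1.01, 2.62 and 2.96 FPKM and 69.04, 502.47 and 32.85 FPKM. Gh_A02G0382 had 2.29, 2.40 and 3.20 FPKM and 35.41, 220.18 and 19.13 FPKM. Identifiers inside and beside these stretches that were no members had the same peak. Gh_A02G0380 had virescent values of 128.75, 343.12 and 29.42 FPKM, and Gh_D02G0431 had 38.99, 196.76 and 6.48 FPKM, each with virescent 3 below a wild-type library. The stretches had sharp ends, since Gh_A02G0377 and Gh_D02G0430 were lower in virescent leaves, by log2 differences of -1.93 and -1.77, and Gh_A02G0383 and Gh_D02G0435 differed by 0.021 and -0.16.

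Gh_A05G3489 and Gh_D04G0130 showed the same peak and were each other's closest member, at a distance of 0.51. Gh_A05G3489 had 0.08, 0.31 and 0.12 FPKM in the wild type and 7.03, 75.86 and 2.80 FPKM in virescent leaves. Gh_D04G0130 had 0.11, 0.08 and 0.11 FPKM and 6.80, 56.51 and 2.67 FPKM. Whether they are copies of 1 gene is not known from the identifiers. How reads that match more than 1 gene were counted is not given in the sources used here, so members alike in sequence may share reads.

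**Figure D3:**
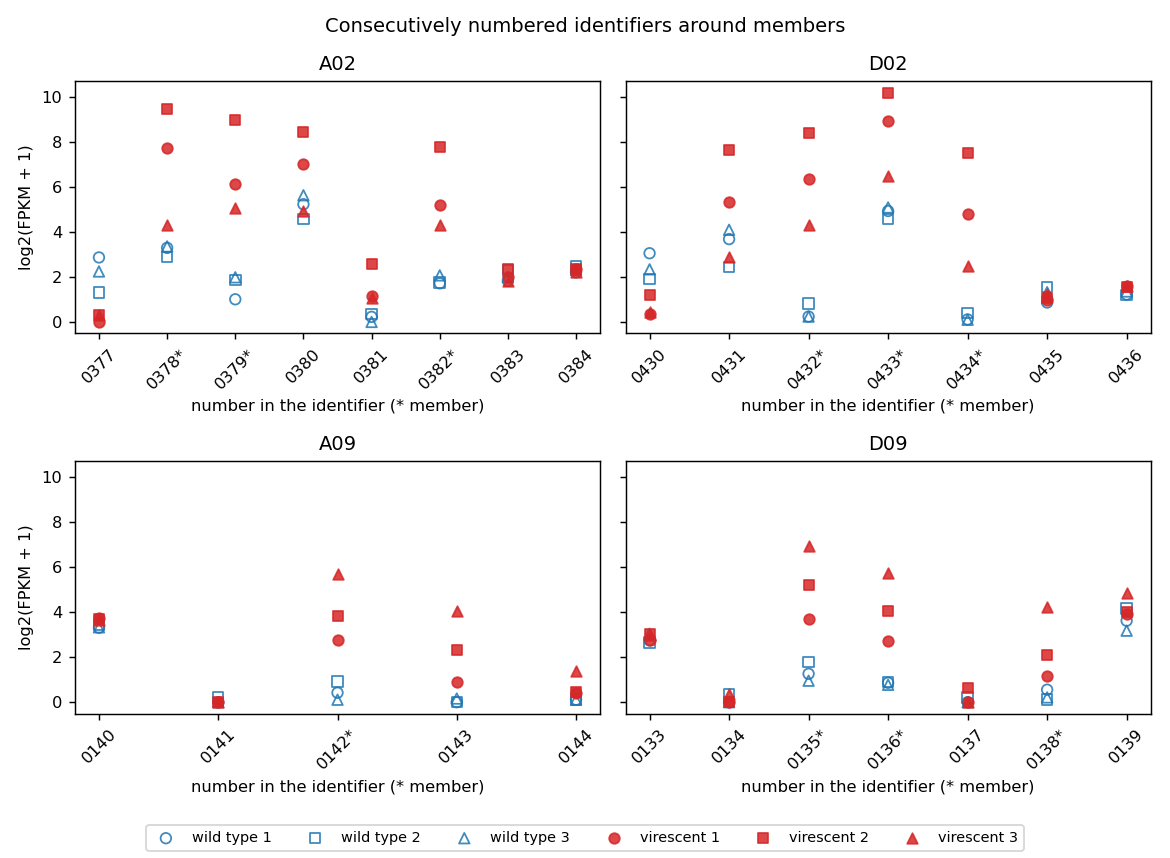
Level as log2(FPKM + 1) of consecutively numbered identifiers on A02, D02, A09 and D09 in each library; open blue symbols are wild type, filled red symbols virescent, and asterisks mark members. On A02 and D02 the red squares of virescent 2 lie above the other virescent libraries in every member, and on A09 and D09 the red triangles of virescent 3 do.

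A further set of members varied more across the wild-type libraries than across the virescent libraries. In 42 members (27.1%) the SD of log2(FPKM + 1) was larger in the wild type than in virescent leaves. The same held for 50.1% of the 7975 smaller rises and 47.3% of all genes that could have met the rule. A larger wild-type spread was thus less common among members than among those genes. In 39 of the 42 members wild type 2 was the highest wild-type library. Among the genes that were higher without overlap by less than 2, wild type 2 was highest in 59.4% of those with the larger wild-type spread. The 42 members summed to 476, 794 and 373 FPKM in wild type 1, 2 and 3, and to 2877, 3034 and 3005 FPKM in virescent 1, 2 and 3. The virescent sums were thus close together, though single members differed between virescent libraries, such as Gh_A02G0805 at 102.35, 52.80 and 37.83 FPKM. Wild type 3 was the lowest wild-type library in 33 of them. In all 155 members together, wild type 2 was highest in 82 (52.9%), close to its 53.0% of the 7975 smaller rises.

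**Figure D4:**
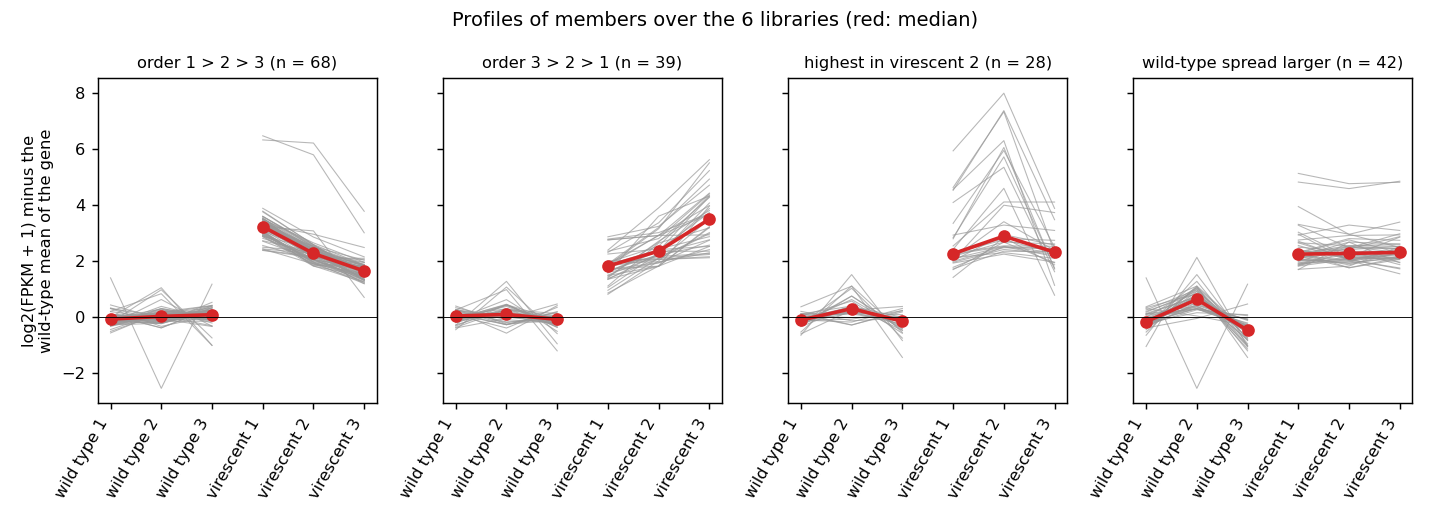
Each grey line is 1 member, drawn as log2(FPKM + 1) minus its wild-type mean; lines join the libraries of 1 genotype, and red points are medians. The panels hold the 68 members ranked virescent 1, 2, 3, the 39 ranked 3, 2, 1, the 28 highest in virescent 2 and the 42 whose wild-type spread was larger, which overlap with the other sets; in the last set the medians are level in virescent leaves and highest in wild type 2.

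Gh_D13G1325 and Gh_A13G1059 belonged to this set and, on the log2(FPKM + 1) scale, had the widest gaps between the lowest virescent and the highest wild-type value. Gh_D13G1325 had 2.35, 4.21 and 0.80 FPKM in wild type 1, 2 and 3 and 108.57, 83.97 and 87.03 FPKM in virescent 1, 2 and 3. Its lowest virescent value was 19.9 times its highest wild-type value. Gh_A13G1059 had 0.55, 1.82 and 0.15 FPKM and 47.02, 39.85 and 48.03 FPKM, a ratio of 21.9. In both, wild type 2 was the highest and wild type 3 the lowest wild-type library.

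By its mean in virescent leaves, Gh_A03G1802 was the most abundant gene of this kind after Gh_A10G0238. In the wild type its mean of 33.3 FPKM was below those of Gh_D05G1126 and Gh_D02G0857, also of this kind, at 53.9 and 51.7 FPKM. Gh_A10G0238, the member with the highest mean in either genotype, had 97.65, 128.41 and 81.79 FPKM in the wild type and 499.35, 704.19 and 674.77 FPKM in virescent leaves. Gh_A03G1802 had 24.40, 52.38 and 23.11 FPKM and 240.36, 308.38 and 269.71 FPKM. Their log2 differences were 2.61 and 3.09. Gh_D02G0857 was less separated, with 52.15, 81.19 and 21.89 FPKM in the wild type and 269.99, 189.09 and 154.18 FPKM in virescent leaves.

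In some members of this set a single wild-type library stood far from the other 2. Gh_D09G0432 was listed at 0 in wild type 1 and 3 and at 8.06 FPKM in wild type 2, just below its lowest virescent value of 8.16 FPKM. Gh_D06G1695 was at 14.84 and 12.56 FPKM in wild type 1 and 3 and at 0.03 FPKM in wild type 2, the opposite position. Gh_A11G1683 was at 0.54 and 0.35 FPKM in wild type 1 and 3 and at 5.91 FPKM in wild type 2. A further 3 genes reached a difference of 2 but were no members because the genotypes overlapped. Gh_A06G1157 was at 0.04 and 0.03 FPKM in wild type 1 and 3 and at 20.08 FPKM in wild type 2, within its virescent range of 17.83 to 23.62 FPKM. Gh_A13G0215 was likewise high in wild type 2, at 17.47 FPKM, and Gh_A04G0830 had 21.09 FPKM in wild type 3 and 0.16 FPKM in virescent 3.

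The members with the smallest spread of log2(FPKM + 1) in both genotypes included genes at moderate and at low levels. Gh_A02G0165 had 3.37, 4.64 and 4.37 FPKM in the wild type and 23.65, 28.50 and 28.15 FPKM in virescent leaves. Gh_A10G2205 had 18.64, 18.98 and 15.46 FPKM and 70.75, 97.53 and 87.07 FPKM. In both, the virescent libraries lay close together and well above all wild-type libraries. Gh_D09G1900 and Gh_A03G1836 had virescent values of 5.37 to 7.07 FPKM and 4.22 to 5.59 FPKM. Their wild-type values of 0.33 to 0.88 FPKM and 0.22 to 0.73 FPKM differed more in proportion, which the added 1 makes small on this scale.

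At the edge of the rule, members and non-members were alike. Just inside it lay Gh_D05G1126, Gh_D10G0497 and Gh_A09G0689, at log2 differences of 2.002, 2.002 and 2.005. Gh_D05G1126 had 41.55, 71.24 and 48.97 FPKM in the wild type and 186.90, 221.02 and 235.71 FPKM in virescent leaves. Just outside lay Gh_D10G1782, Gh_D02G2235 and Gh_D01G1430, at 1.996, 1.986 and 1.984. Gh_D02G2235 had 184.63, 209.79 and 171.47 FPKM in the wild type and 759.22, 728.56 and 754.80 FPKM in virescent leaves, a higher level in green leaves than that of any member.

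Members were spread over both subgenomes and 24 of the 26 chromosome labels. The A subgenome held 74 members of 18997 genes that could have met the rule (0.390%) and the D subgenome 81 of 19564 (0.414%). The labels A01 and D01 held 0 members, of 1271 and 1352 such genes. D09 and D08 held 13 members each, of 1435 and 1617 genes (0.906% and 0.804%), and A08 held 12 of 1541 (0.779%).

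The labels A08 and D08 held mostly members of 1 profile. Of their 25 members, 21 were highest in virescent 1 and lowest in virescent 3, 10 of 12 on A08 and 11 of 13 on D08. These 21 made up a large part of the 68 members with that ranking. The labels were picked after the counts had been seen. How common the ranking was among all 3158 genes on them that could have met the rule was not examined. The remaining 47 lay on 20 other labels, with at most 5 on any of them. On D09, in contrast, 4 of 13 members had this ranking and 4 the reverse.

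**Figure D5:**
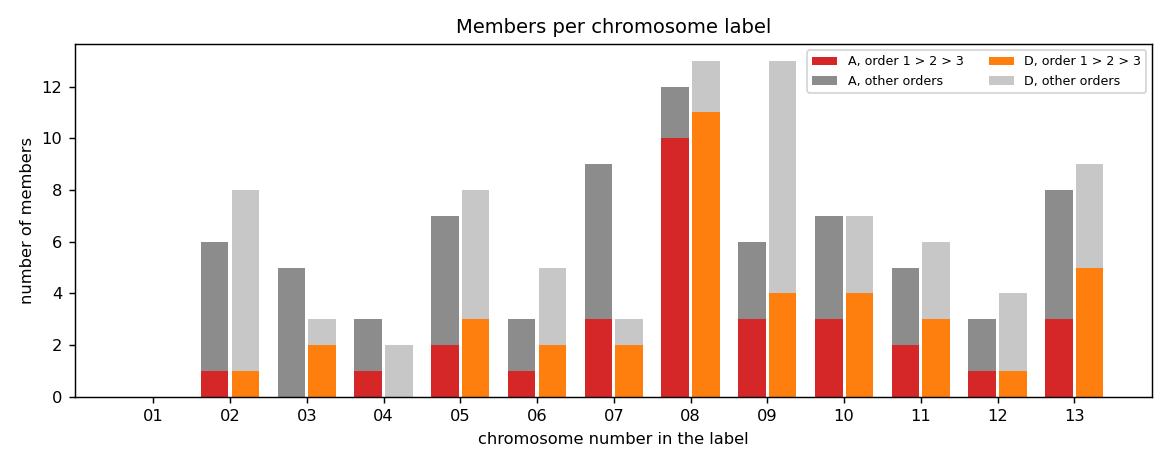
Number of members on each chromosome label, with the A and D chromosome of the same number side by side; coloured segments are members highest in virescent 1 and lowest in virescent 3, grey segments members with another ranking. Labels 01 hold none, and A08 and D08 hold 10 and 11 of the coloured kind.

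Members with consecutive numbers formed 10 runs, 9 of 2 members and 1 of 3, with 21 members in all. Within each of the 10 runs the virescent libraries had the same ranking. Of these runs, 6 were highest in virescent 1, 3 in virescent 2 and 1 in virescent 3. Gh_D09G0706 and Gh_D09G0707 were highest in virescent 2 and lowest in virescent 1, with virescent values of 25.10, 101.47 and 84.43 FPKM and of 88.06, 137.19 and 135.20 FPKM. Of 175 directly adjacent genes that were no members, 34.3% were higher in virescent leaves without overlap, against 21.1% of all such genes, and their median log2 difference was 0.17 against 0.05. Reads shared between similar neighbours, and their part in these runs, were not tested.

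The A and D copies of a gene could not be matched from the identifiers. For 9 of the 155 members (5.81%) the closest member by profile lay on the chromosome of the same number in the other subgenome, where 4.73% of all pairs of members join such chromosomes. Only equal chromosome numbers were counted, so any copies on exchanged chromosome arms were left out.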

How the data were processed

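The authors deposited 1 table of FPKM values, rounded to 2 decimals, with 1 column per library, per the file headers. Which aligner, counter and annotation made it is not given in the sources used here, and a single build, that of mouse, stands in the submitters' processing notes, so the build behind the cotton identifiers stays unknown. FPKM values are divided by transcript length and by mapped fragments, so a large change in abundant transcripts moves all others. Fragment numbers are unknown, and no detection limit is given.

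Genes with at least 1 FPKM in at least 3 libraries (43104) were fitted with limma 3.58.1 in R 4.3.3 on log2(FPKM + 1), with genotype as the only term, a mean-variance trend and Benjamini-Hochberg adjustment over all of them at 0.05. All differences are of log2(FPKM + 1), and the added 1 makes those of weakly transcribed genes too small. Profiles were compared by Euclidean distance over the 6 libraries on that scale. Members and the naming rule were chosen with earlier results of these data known. The rule named the members with the largest difference, highest means, smallest and largest spread, widest gap, consecutive numbers, and those at the edge of the rule. Other identifiers are neighbours, closest profiles, members that missed the threshold or overlapping genes, named after their values had been seen. No gene list could be matched, since the table pairs no identifier with a name. Python 3.11.15 and matplotlib 3.10.9 were used for counts and figures.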

Additional observations from a re-analysis of the deposited data

How the results depend on the processing

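The number of members was 416 at a pseudocount of 0.1, which contained all 155, 399 at a difference of at least 1.5 and 56 at 2.5. Rescaling to the same sum left 144 of the 155 and median ratio scaling 136. Leaving out 1 library gave 141 to 203 genes by the rule, of which 112 to 149 were members, and leaving out both number-2 libraries, chosen after seeing the data, gave 199, with 148 members. Members per subgenome were 198 in A and 201 in D at 1.5, and 28 and 28 at 2.5. The ranking virescent 1, 2, 3 held 167 genes at 1.5 and 16 at 2.5, and the reverse ranking 79 and 19, so at 2.5 the reverse was the more frequent (33.9% against 28.6%). Median ratio scaling gave 66 and 45. Members within 10 numbers of another member were 32, against 21 with consecutive numbers. The main limma fit called 2714 of 43104 genes higher and 1745 lower. After median ratio scaling 2144 of 43067 genes were called higher, including 144 members, and 2076 lower. Without a filter the fit called 1442 of 65126 identifiers higher, including 108 members. Leaving out 1 library gave 248 to 2783 of 43104 genes called higher and 40 to 143 members called. Genes called higher were 248, 572, 1004 and 1271 without wild type 1, wild type 3, virescent 1 and virescent 2. Members called in the same fits were 40, 87, 137 and 126. A replicate block in the fit lowered the genes called higher to 473 of 43104, including 86 members. Libraries 1, 2 and 3 deviated from their group means with correlations of 0.08, -0.28 and -0.24 between the genotypes, so the numbers were not taken as a pairing. The 24 genes named by the rule had a positive difference in each of 216 refits, as their choice made likely, and 7 values moved by more than the spread between libraries, all upward at a pseudocount of 0.1. Why these settings differ was not tested; a smaller added constant by its construction raises the difference of low genes. Without fragment numbers no limit by depth can be stated.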

Other observations

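Identifiers without a chromosome label were outside the rule, and 14 of them met the same values, 9 on scaffolds and 5 with the prefix BGI_novel. The largest difference among them was that of Gh_Sca024064G01, with 0.52, 0.51 and 0.06 FPKM in wild type 1, 2 and 3 and 38.25, 31.87 and 32.72 FPKM in virescent 1, 2 and 3, a log2 difference of 4.71. BGI_novel_G005265 was close to absent in green leaves, at 0.02, 0.03 and 0 FPKM, and steady in virescent leaves, at 4.70, 4.61 and 4.79 FPKM. BGI_novel_G004783 was the most abundant, with 56.82, 75.06 and 57.95 FPKM in the wild type and 261.52, 397.83 and 472.92 FPKM in virescent leaves.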
